A study of Mus musculus with 22 samples.

Results

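The interleukin-1 axis was followed here as 9 genes, chosen by name: the ligands Il1a and Il1b, the antagonist Il1rn, the receptors Il1r1, Il1r2, Il1rap and Il1rl1, the adaptor Myd88 and the protease Casp1. Of these, 8 were listed among the 16235 genes of the deposited tables, and 5 (Il1rn, Il1r1, Il1rap, Myd88 and Casp1) had counts in all 22 libraries. Il1a was listed in 0 of the 6 comparison sheets and has no value here. Il1b and Il1r2 were not listed at postnatal day 10, and Il1r2 and Il1rl1 were not listed for untreated Ehmt2+/+ young adults. A gene that was not listed is reported as such and was not set to 0.

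RNA of whole pancreas was sequenced from 22 C57Bl/6 mice in 8 groups. Untreated Pdx1-Cre mice were taken at postnatal (PN) day 10 (Ehmt2+/+, n = 3, and Ehmt2fl/fl, n = 3) and as young adults (YA) of 4 weeks (Ehmt2+/+, n = 2, and Ehmt2fl/fl, n = 3). Acute pancreatitis had been induced at 4 weeks with caerulein, a cholecystokinin analogue that overstimulates acinar cells, given as 8 hourly doses of 50 μg/kg after a fast of 12 h, and the pancreas was collected at 18 h, counted from dose 1, from Pdx1-Cre mice (Ehmt2+/+, n = 4, and Ehmt2fl/fl, n = 2) and from P48-Cre mice (Ehmt2+/+, n = 2, and Ehmt2fl/fl, n = 3). Mice of both genotypes carried the Cre driver named. Pdx1-Cre is a transgene under the Pdx1 promoter and P48-Cre sits in the Ptf1a locus, so both delete floxed Ehmt2, which encodes a histone H3 lysine 9 methyltransferase, in pancreatic epithelium but not in the immune, stromal and vessel cells that whole tissue also holds. No fast or injection was recorded for the untreated mice, so these cannot be told apart from caerulein in the comparison of treated with untreated pancreas.

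Interleukin-1 is an early signal of sterile tissue injury. Interleukin-1β is made as an inactive precursor, mainly by activated monocytes, macrophages and neutrophils, and is cleaved by caspase-1 in inflammasomes. Cleaved interleukin-1β, like interleukin-1α, the product of Il1a, binds the signalling receptor Il1r1. This receptor pairs with the accessory protein Il1rap and recruits the adaptor Myd88 to switch on NF-kB. The axis carries its own brakes: the antagonist encoded by Il1rn occupies the receptor without signalling, and Il1r2 binds interleukin-1 as a decoy. Il1rl1 is the receptor of the related cytokine interleukin-33 and uses the same accessory protein. In experimental pancreatitis the pathway is known as a driver of severity. Gene counts do not separate the secreted from the intracellular antagonist, or soluble from membrane forms of Il1rl1 and Il1rap.

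In GENCODE vM21 on GRCm38, Il1b lies at chr2:129364570-129371139 on the minus strand and Il1rn at chr2:24336853-24351494 on the plus strand. Il1r2 (chr1:40074079-40125231), Il1r1 (chr1:40225080-40317257) and Il1rl1 (chr1:40429570-40465415) follow each other on chromosome 1, all on the plus strand. Il1rap is at chr16:26581704-26730117 and Casp1 at chr9:5298517-5307265, both on the plus strand, and Myd88 is at chr9:119335934-119341411 on the minus strand. For the 3 members that differed most between genotypes under caerulein, the 250 bases before the annotated start are shown, from RefSeq on GRCm38.p6, 5′ to 3′ on the gene's own strand. Capitals mark matches on either strand to the AP-1 letters TGANTCA, the C/EBP letters TTNNGCAAT, the core promoter letters TATAAA or the kappa B consensus. Such matches were found, in this order, in 6.75%, 1.93%, 12.4% and 3.9% of all 32851 promoter windows of this length.
Il1b, chr2:129371140-129371389, minus strand: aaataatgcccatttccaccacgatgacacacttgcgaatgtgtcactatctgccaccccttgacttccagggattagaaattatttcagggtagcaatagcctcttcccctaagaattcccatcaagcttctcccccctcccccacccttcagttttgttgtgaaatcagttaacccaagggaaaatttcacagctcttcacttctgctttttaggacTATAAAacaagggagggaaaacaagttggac
Il1rn, upstream start, chr2:24336610-24336859, plus strand: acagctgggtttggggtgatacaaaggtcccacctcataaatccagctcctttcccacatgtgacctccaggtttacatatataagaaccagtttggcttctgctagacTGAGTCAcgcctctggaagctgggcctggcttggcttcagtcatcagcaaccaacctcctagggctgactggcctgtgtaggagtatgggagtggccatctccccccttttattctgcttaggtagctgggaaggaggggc
Il1rn, 1 of 2 downstream starts, chr2:24345041-24345290, plus strand: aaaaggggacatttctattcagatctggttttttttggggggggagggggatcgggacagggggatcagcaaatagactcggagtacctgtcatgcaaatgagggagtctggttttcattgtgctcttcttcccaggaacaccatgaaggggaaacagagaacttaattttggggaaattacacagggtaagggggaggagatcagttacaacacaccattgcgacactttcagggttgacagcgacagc
Il1r2, chr1:40085843-40086092, plus strand: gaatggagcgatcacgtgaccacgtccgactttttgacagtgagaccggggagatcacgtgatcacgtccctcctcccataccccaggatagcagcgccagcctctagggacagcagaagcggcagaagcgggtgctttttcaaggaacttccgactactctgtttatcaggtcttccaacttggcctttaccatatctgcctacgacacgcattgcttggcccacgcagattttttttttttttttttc

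The Il1b window held a single match, the TATA box whose first base is 31 bases before the start. The window of the upstream Il1rn start held an AP-1 match 141 bases before it, and the windows of both downstream Il1rn starts, which overlap and of which 1 is shown, and of Il1r2 held no match to these 4 patterns. All 9 members had a RefSeq start, with 13 windows in all. A match is a description of the letters and no evidence of binding.

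The libraries held 14229980 to 40321967 counts over the listed genes. Levels are given in CPM, counts over a library size scaled by TMM, which sets the bulk of genes level between libraries. A level of 1 CPM stood for 5.68 to 9.17 counts in the untreated YA libraries and for 20.2 to 49.7 counts in the treated ones, so low levels were measured less finely in the former. The genes of digestive enzymes took 79.7 to 84.6% of the counts in untreated YA, 51.5 to 63.5% in treated Ehmt2+/+ and 39.4 to 51.5% in treated Ehmt2fl/fl pancreas. Ehmt2 itself spanned 36.8 to 73.0 CPM over the Ehmt2+/+ libraries and 32.5 to 71.9 CPM over the Ehmt2fl/fl libraries. These counts cover the whole gene in tissue that also holds cells without Cre, so they do not check the deletion. Y-linked genes had 1176 and 1547 counts in the 2 treated Pdx1-Cre Ehmt2fl/fl libraries and 1 to 6 counts in their 4 Ehmt2+/+ controls, so sex and genotype cannot be told apart in that pair of groups, while the P48-Cre groups and the untreated YA groups held both sexes.

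**Figure D1:**
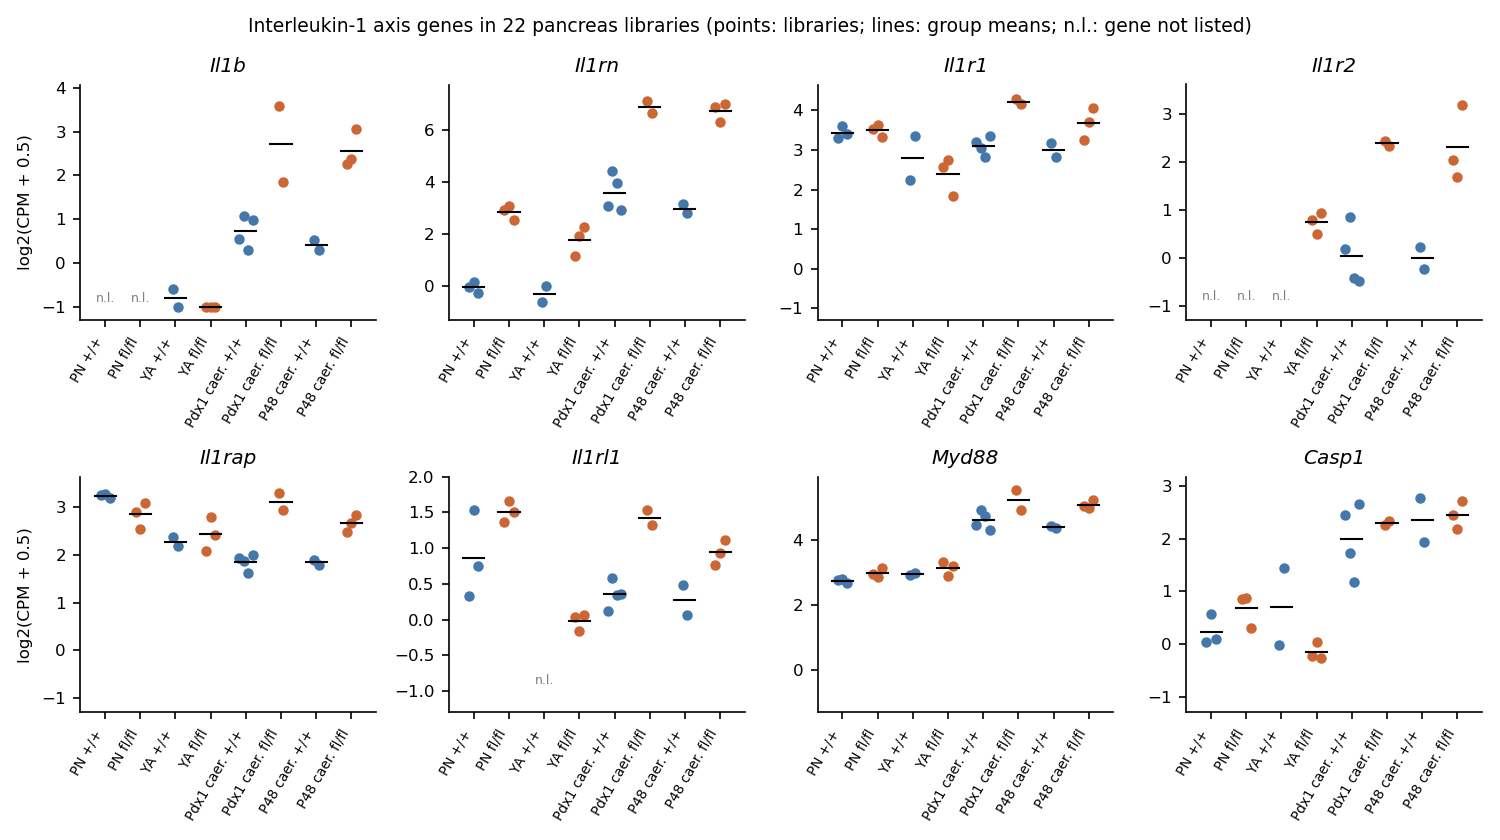
Level of 8 members as log2(CPM + 0.5) in each library, by group (blue, Ehmt2+/+, orange, Ehmt2fl/fl, lines, group means of the log values, n.l., gene not listed). Il1b, Il1rn and Il1r2 in treated Ehmt2fl/fl pancreas lie above every treated Ehmt2+/+ library, Myd88 is high in all treated libraries, and the genotypes overlap for Casp1 under caerulein.

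Caerulein was first compared with no treatment in Pdx1-Cre mice. Il1b had at most 1 count in any untreated young adult library and rose in both genotypes, as did Il1rn from a level that was higher in untreated Ehmt2fl/fl than in Ehmt2+/+ mice, Myd88 and Casp1 rose as well, and Il1r1 passed the test in Ehmt2fl/fl mice only. In Ehmt2+/+ mice 4 of the 6 members tested were higher (edgeR quasi-likelihood test, Benjamini-Hochberg adjusted p under 0.1 and log2 difference of at least 1), against 10.4% of all genes tested. In Ehmt2fl/fl mice 7 of 8 were higher, against 18.5% of all genes. The median log2 difference was 1.61 over 6 members in Ehmt2+/+ and 2.15 over 8 members in Ehmt2fl/fl mice. Over all genes tested it was 0.10 and 0.12. Il1r2 and Il1rl1 were tested in Ehmt2fl/fl mice alone, so the counts and medians of the members cover different sets.

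Il1b had 1 and 0 counts in the untreated Ehmt2+/+ libraries and 23, 57, 21 and 41 counts after caerulein. The untreated total of 1 count against 142 gave a ratio of 17.1 in CPM, with a 95% counting interval of 3.02 to 681 (edgeR adjusted p = 0.043). In Ehmt2fl/fl mice Il1b had 0 counts in each of the 3 untreated libraries and 524 and 153 counts in the treated ones (edgeR adjusted p = 3.6e-04). The ratio in CPM was 53.3 when the untreated group as a whole was set at 3 counts. The 95% counting interval of the same ratio, with the 0 counts as they stand, starts at 43.2. The treated and untreated libraries did not overlap in either genotype, and the untreated level was too low to compare the genotypes before treatment.

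Il1rn went from 0.161 and 0.518 CPM to 8.01, 21.3, 15.1 and 7.13 CPM in Ehmt2+/+ mice, a log2 difference of 5.17 ± 0.78 (SE; edgeR adjusted p = 6.4e-04). In Ehmt2fl/fl mice it started higher, at 1.76, 3.30 and 4.36 CPM, and reached 139 and 101 CPM, a log2 difference of 5.21 ± 0.51 (edgeR adjusted p = 2.5e-05). The 2 increases differed by 0.04 ± 1.19 on the log2 scale, an error too wide to set a limit on the difference.

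Among the receptors, Il1r1 stood at 4.20 and 9.71 CPM in untreated and at 6.62 to 9.68 CPM in treated Ehmt2+/+ pancreas, a log2 difference of 0.22 ± 0.33 (edgeR adjusted p = 0.64). In Ehmt2fl/fl pancreas it went from 3.05 to 6.20 CPM untreated to 18.9 and 17.3 CPM treated, a log2 difference of 1.91 ± 0.33 (edgeR adjusted p = 9.1e-04). Treated and untreated libraries overlapped in Ehmt2+/+ and not in Ehmt2fl/fl mice. Il1rap, the accessory chain, gave -0.45 ± 0.26 in Ehmt2+/+ (edgeR adjusted p = 0.21) and 0.72 ± 0.25 in Ehmt2fl/fl mice (edgeR adjusted p = 0.037), the latter under the fold threshold. Il1r2 and Il1rl1 could be tested in Ehmt2fl/fl mice alone and rose by 1.92 ± 0.27 and 2.09 ± 0.35 on the log2 scale.

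Myd88 ranged from 7.10 to 7.51 CPM in untreated and from 19.5 to 29.8 CPM in treated Ehmt2+/+ pancreas, a log2 difference of 1.75 ± 0.26, and rose by 2.21 ± 0.24 in Ehmt2fl/fl mice. Casp1 rose by 1.46 ± 0.59 in Ehmt2+/+ mice (edgeR adjusted p = 0.083) and by 3.44 ± 0.66 in Ehmt2fl/fl mice (edgeR adjusted p = 0.0015). Its untreated level was low and uneven, 0.484 and 2.20 CPM in the Ehmt2+/+ libraries, with 0.327 to 0.528 CPM in the Ehmt2fl/fl libraries. The summed B and plasma cell markers moved with it, at 70.9 and 236 CPM in the same untreated Ehmt2+/+ libraries. In treated Ehmt2+/+ mice Casp1 stood at 4.93, 2.81, 1.75 and 5.84 CPM and those markers at 627, 155, 5.81 and 861 CPM, in the same order of libraries, and their part in the Casp1 result was not tested. Without untreated Ehmt2+/+ replicate 2, the higher library, the Casp1 difference was 2.98 and the Il1r1 difference 0.96 in place of 0.22. Without untreated Ehmt2+/+ replicate 1 the count of members that rose in Ehmt2+/+ mice fell from 4 to 2, Il1b, which had its single untreated count there, and Casp1 no longer passing (edgeR adjusted p = 0.10 and 0.43). Il1b also failed without untreated Ehmt2+/+ replicate 2 and with sex as a covariate (adjusted p = 0.22 and 0.21), and Casp1 without treated Ehmt2+/+ replicate 1 or 4, with TMM that left out digestive enzyme and mitochondrial genes, and with the compared groups fitted alone (adjusted p = 0.12, 0.14, 0.11 and 0.19).

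Whether the response to caerulein differed by genotype was tested as an interaction. None of the 6 members passed (0 of 6 by edgeR, 1 of 6 by DESeq2, against 1.25% of all genes by edgeR), and 2 had an unadjusted p under 0.05 by edgeR. These were Il1r1, with a log2 difference of 1.69 ± 0.47 (edgeR adjusted p = 0.14), and Il1rap, with 1.17 ± 0.36 (edgeR adjusted p = 0.19), both more positive in Ehmt2fl/fl mice. Il1r1 was the member that passed with DESeq2 (adjusted p = 0.037), and it also passed with edgeR without untreated Ehmt2+/+ replicate 1 or treated Ehmt2+/+ replicate 4 (adjusted p = 0.047 and 0.087). With library totals as the only scaling 4 of 6 passed.

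**Figure D2:**
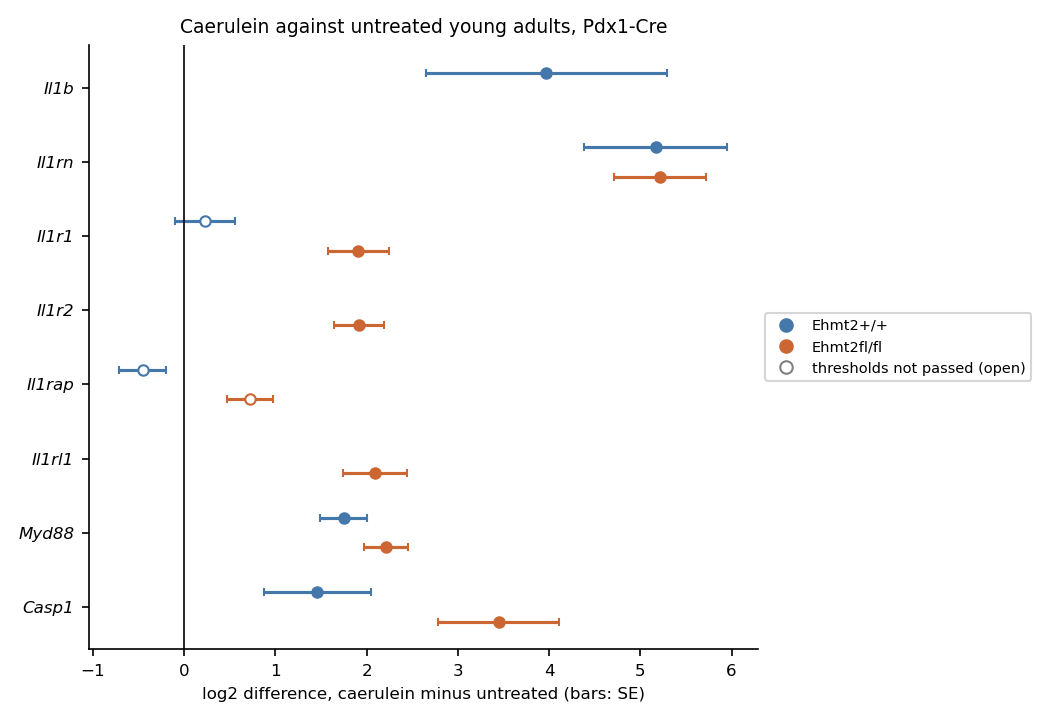
Log2 difference between caerulein-treated and untreated young adult Pdx1-Cre pancreas for each member, with the SE as bars (blue, Ehmt2+/+, orange, Ehmt2fl/fl, open points, thresholds not passed). Il1rn lies near 5 in both genotypes, and Il1r1 is near 0 in Ehmt2+/+ (0.22) and at 1.91 in Ehmt2fl/fl mice. Il1b in Ehmt2fl/fl mice is not drawn because its untreated libraries held 0 counts.

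Among other genes of the pathway, the receptor signalling list passed the thresholds with caerulein about as often as all genes, and most of the induced genes tested rose. Of 16 signalling genes, 0 were higher and 2 lower in Ehmt2+/+ mice by edgeR and by DESeq2, with 6 at an unadjusted p under 0.05 in either direction, Irak1 (-1.62 ± 0.16), a kinase of the receptor complex, and Tollip (-1.02 ± 0.15), which holds that kinase inactive. In Ehmt2fl/fl mice 3 were higher and 1 lower, with Irak1 at -1.66 ± 0.19, its relative Irak4 at 1.20 ± 0.17 and Irak3, which dampens the signal in myeloid cells, at 1.86 ± 0.29. These counts stand beside 1341 of 13950 genes lower in Ehmt2+/+ mice and the 18.5% of genes higher in Ehmt2fl/fl mice, and the median of the list was -0.02 and 0.21.

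Of the genes that interleukin-1 induces through NF-kB, 9 of 11 tested were higher in Ehmt2+/+ and 14 of 14 in Ehmt2fl/fl mice. Over all genes tested, 10.4% and 18.5% were higher. The medians of the list were 1.57 in Ehmt2+/+ and 3.56 in Ehmt2fl/fl mice. The lowest adjusted p belonged in both to Ccl2, a monocyte chemoattractant (6.64 ± 0.66 and 7.49 ± 0.54), and Lcn2, the iron-carrier-binding lipocalin (6.30 ± 0.65 and 5.26 ± 0.44). Of the inflammasome and processing genes, 7 of 12 and 14 of 16 were higher, among them Mefv, encoding the inflammasome sensor pyrin (4.75 ± 0.97 and 7.25 ± 0.81), and Gsdmd, the pore-forming substrate of caspase-1 (1.72 ± 0.36 and 3.05 ± 0.35). Among the other ligands and binding proteins 1 of 3 was higher in Ehmt2+/+ mice (Il18bp, 1.74 ± 0.52) and 4 of 4 in Ehmt2fl/fl mice, including Il33 (3.77 ± 0.64) and Il18 (4.82 ± 1.11). In each of these lists more genes were tested in Ehmt2fl/fl than in Ehmt2+/+ mice, so the counts and medians do not compare the genotypes over the same genes. Many of these genes are themselves expressed by infiltrating leukocytes. The summed macrophage and monocyte markers, all 12 listed, went from 98.8-198 CPM untreated to 540-992 CPM treated in Ehmt2+/+ and from 109-134 to 1603-1924 CPM in Ehmt2fl/fl mice, and the part of these cells in the changes was not tested.

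The genotypes were next compared within treated mice, in each driver and over both. Il1b, Il1rn and Il1r2 were higher in Ehmt2fl/fl pancreas with either driver, by 5.98- to 14.4-fold. Il1r1, Il1rap and Il1rl1 were 2.19- to 2.73-fold higher with Pdx1-Cre, Myd88 was under the fold threshold with either driver, and the genotypes overlapped for Casp1. With Pdx1-Cre 6 of 8 members were higher, against 4.22% of all genes, and with P48-Cre 3 of 8, against 4.01%. Over both drivers, with the driver as a covariate, 5 of 8 were higher, against 5.32%. The members' median log2 difference was 1.41 with Pdx1-Cre, 0.94 with P48-Cre and 1.20 over both, against -0.02, 0.03 and -0.01 over all genes.

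Il1b, the ligand, stood at 0.970, 1.62, 0.735 and 1.47 CPM in treated Pdx1-Cre Ehmt2+/+ mice and at 11.6 and 3.08 CPM in Ehmt2fl/fl mice. With P48-Cre it stood at 0.950 and 0.742 CPM against 4.28, 4.72 and 7.77 CPM. Every treated Ehmt2fl/fl library was above every treated Ehmt2+/+ library, and the 2 Pdx1-Cre Ehmt2fl/fl libraries were unequal. Over both drivers the log2 difference was 2.64 ± 0.36 (edgeR adjusted p = 8.4e-04). Without Pdx1-Cre Ehmt2fl/fl replicate 1, the higher of the pair, the Pdx1-Cre difference went from 2.58 to 1.34 and no longer passed (edgeR adjusted p = 0.29).

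Il1rn, the antagonist, reached the highest level of the axis. With P48-Cre it stood at 8.59 and 6.48 CPM in Ehmt2+/+ and at 118, 79.2 and 128 CPM in Ehmt2fl/fl mice, beside the Pdx1-Cre values given above. The lowest treated Ehmt2fl/fl library (79.2 CPM) was above the highest treated Ehmt2+/+ library (21.3 CPM). The log2 difference was 3.18 ± 0.42 with Pdx1-Cre (edgeR adjusted p = 0.0038), 3.85 ± 0.54 with P48-Cre (edgeR adjusted p = 0.0071) and 3.49 ± 0.34 over both (edgeR adjusted p = 1.1e-04). Per kilobase of the gene length given with the counts, its mean in treated Pdx1-Cre Ehmt2fl/fl pancreas was 21.6 CPM per kb, against 14.99 for Myd88, 3.84 for Il1b, 2.85 for Il1r1, 2.48 for Il1r2, 1.41 for Casp1, 0.724 for Il1rap and 0.319 for Il1rl1. In treated Pdx1-Cre Ehmt2+/+ pancreas Myd88 led with 9.47 CPM per kb and Il1rn followed with 2.33.

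Il1r2, the decoy receptor, stood at 0.632, 1.30, 0.245 and 0.215 CPM in Pdx1-Cre Ehmt2+/+ and at 4.90 and 4.57 CPM in Ehmt2fl/fl mice. With P48-Cre the values were 0.679 and 0.346 CPM against 3.60, 2.73 and 8.59 CPM. The genotypes did not overlap with either driver, although the P48-Cre Ehmt2fl/fl libraries spread widely. The log2 difference was 2.93 ± 0.65 (edgeR adjusted p = 0.028) and 3.25 ± 0.83 (edgeR adjusted p = 0.060), and 3.07 ± 0.49 over both drivers (edgeR adjusted p = 0.0020). With Pdx1-Cre the call failed without Ehmt2fl/fl replicate 1 or 2 and with sex as a covariate (adjusted p = 0.21, 0.11 and 0.26), and with P48-Cre without Ehmt2+/+ replicate 1 or 2, without Ehmt2fl/fl replicate 3 and with sex as a covariate (adjusted p = 0.16, 0.41, 0.12 and 0.11).

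Il1r1, the signalling receptor, stood at 8.64, 7.71, 6.62 and 9.68 CPM against 18.9 and 17.3 CPM with Pdx1-Cre, and at 8.59 and 6.58 CPM against 9.01, 12.5 and 16.2 CPM with P48-Cre. The groups were apart with either driver, narrowly so with P48-Cre. The log2 difference was 1.13 ± 0.22 with Pdx1-Cre (edgeR adjusted p = 0.017), 0.72 ± 0.25 with P48-Cre (edgeR adjusted p = 0.14) and 0.94 ± 0.17 over both (edgeR adjusted p = 0.0034), just under the fold threshold. Il1rap ranged from 2.59 to 3.48 CPM in the 6 treated Ehmt2+/+ libraries and from 5.04 to 9.34 CPM in the 5 Ehmt2fl/fl libraries, a log2 difference of 1.16 ± 0.15 over both drivers (edgeR adjusted p = 5.9e-04). Il1rl1, the interleukin-33 receptor, ranged from 0.544 to 0.992 CPM and from 1.21 to 2.38 CPM, a log2 difference of 1.24 ± 0.22 (edgeR adjusted p = 0.0034). For both chains the Ehmt2fl/fl libraries lay wholly above the Ehmt2+/+ libraries.

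Myd88, the adaptor, ranged from 19.5 to 29.8 CPM in treated Ehmt2+/+ and from 30.4 to 46.8 CPM in treated Ehmt2fl/fl libraries. These did not overlap, and the log2 difference of 0.67 ± 0.16 over both drivers had an adjusted p of 0.016 (edgeR) but a size under 1. Casp1, the protease, ranged from 1.75 to 6.33 CPM and from 4.02 to 6.09 CPM, the Ehmt2fl/fl values lying within the Ehmt2+/+ range, with a log2 difference of 0.13 ± 0.29 (edgeR adjusted p = 0.82). The summed B and plasma cell markers varied widely between these libraries. They stood at 5.81 and 675 CPM in the Ehmt2+/+ libraries with Casp1 at 1.75 and 6.33 CPM. Ehmt2fl/fl libraries with sums of 15.4 (Pdx1-Cre) and 6.52 CPM (P48-Cre) had Casp1 at 4.28 and 6.09 CPM. The part of these cells in the Casp1 comparison was not tested.

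**Figure D3:**
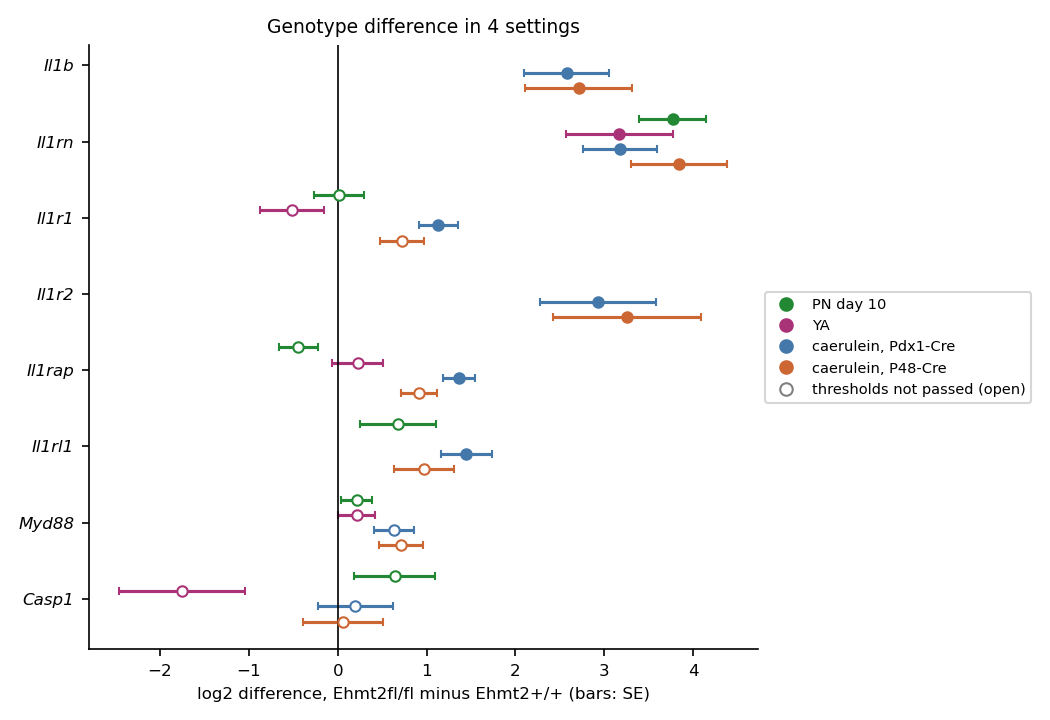
Log2 difference between Ehmt2fl/fl and Ehmt2+/+ pancreas for each member at PN day 10, in untreated YA and under caerulein with either driver, with the SE as bars (open points, thresholds not passed). Il1rn lies between 3.17 and 3.85 in all 4 settings, Il1b and Il1r2 between 2.58 and 3.25 under caerulein, and Casp1 near 0 under caerulein.

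Whether the genotype difference depended on the driver was tested directly. None of the 8 members passed (0 of 8 by edgeR and by DESeq2, with 0 at an unadjusted p under 0.05), and 0% of all 14440 genes did by edgeR, so a member past the thresholds with Pdx1-Cre alone was not shown to differ between drivers. Single libraries and sex bore on the counts. With P48-Cre, 1 of 8 members passed without Ehmt2+/+ replicate 1 (Il1rn) and 0 of 8 without Ehmt2+/+ replicate 2 (Il1rn adjusted p = 0.12), either of which leaves a single control. With Pdx1-Cre, 2 of 8 passed (Il1rn and Il1rap) without Ehmt2fl/fl replicate 1, and the same 2 passed with sex as a covariate, which the P48-Cre groups alone can separate from genotype. Over both drivers the count stayed at 5 or 6 of 8 whichever library was left out.

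Markers of myeloid cells moved with these differences. The summed macrophage and monocyte markers, all 12 listed, ranged from 540 to 992 CPM in Pdx1-Cre Ehmt2+/+ and from 1603 to 1924 CPM in Ehmt2fl/fl mice, and from 472 to 788 against 1352 to 2582 CPM with P48-Cre, with 9 of 12 higher over both drivers. The summed neutrophil markers, 8 of 12 listed with Pdx1-Cre and 7 of 12 with P48-Cre, ranged from 11.8 to 35.8 against 80.9 to 136 CPM and from 7.51 to 9.63 against 51.3 to 105 CPM, with 6 of 7 tested higher. Of the neutrophil markers Ly6g, Mpo, Camp and Ngp were not listed. In bulk tissue fewer cells of a type and less RNA per cell cannot be told apart, and the part of these cells in the members' changes was not tested. Epithelial markers differed too. Over both drivers 8 of 10 acinar markers were lower in Ehmt2fl/fl mice, with a median log2 difference of -1.60. Over all genes 398 of 14440 were lower, and the 5.32% that were higher stand beside the myeloid counts. Of the keratinised epithelium markers, 2 of 7 were listed with Pdx1-Cre (Sprr1a and Krt14) and 1 of 7 with P48-Cre (Sprr1a). They summed to 6.09-51.8 CPM against 61.0-67.6 CPM and to 6.20-6.38 CPM against 37.8-59.9 CPM, apart with either driver. These sums were nearly all Sprr1a, with a mean of 25.9 against 63.6 CPM with Pdx1-Cre. Mean Krt14 went the other way there, from 1.13 to 0.686 CPM. With Pdx1-Cre 0 of 2 passed (edgeR and DESeq2), and with P48-Cre 1 of 1 did. So few genes do not stand for the cell type, and their part in the Il1rn and Il1f9 differences was not tested either. The T, NK and innate lymphoid list and the B and plasma cell list had 0 of 9 and 0 of 7 genes past the thresholds (edgeR and DESeq2, and 0 at an unadjusted p under 0.05 by edgeR), and their sums overlapped between genotypes. Islet markers, all 5 listed, summed to 200-798 CPM against 878-1886 CPM with Pdx1-Cre, where the genotypes were apart. With P48-Cre they summed to 478-535 CPM against 508-1083 CPM and overlapped. By edgeR 2 of 5 were higher with Pdx1-Cre and 0 of 5 with P48-Cre, and the part of islets in the members' differences was not tested.

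**Figure D4:**
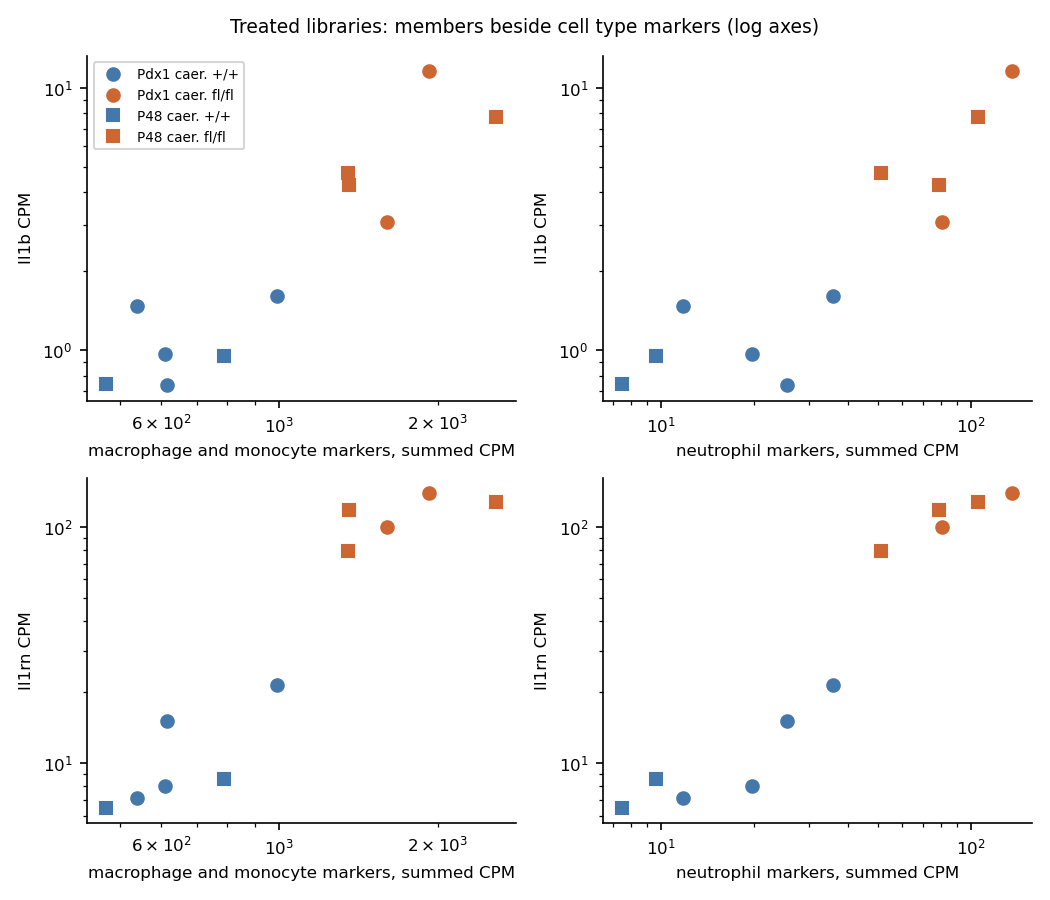
CPM of Il1b (top) and Il1rn (bottom) in the 11 treated libraries against the summed CPM of macrophage and monocyte markers (left) and neutrophil markers (right), on log axes (circles, Pdx1-Cre, squares, P48-Cre, blue, Ehmt2+/+, orange, Ehmt2fl/fl). The 5 Ehmt2fl/fl libraries lie above the 6 Ehmt2+/+ libraries on both axes of each panel.

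Ratios of counts within a library do not depend on how libraries were scaled, so 6 were compared between genotypes with an exact two-sided permutation test that kept each driver's groups apart (150 arrangements, smallest possible p 0.0067, Benjamini-Hochberg adjustment over the 6). Il1rn relative to Il1r1, per kilobase, was 0.847 to 3.18 in Pdx1-Cre Ehmt2+/+ and 6.67 to 8.45 in Ehmt2fl/fl mice, and 1.13 to 1.15 against 7.28 to 15.1 with P48-Cre. In RNA counts of whole tissue Il1rn thus stood 6.30-fold higher relative to Il1r1 (exact permutation p = 0.0067, adjusted p = 0.040). Protein and occupancy of the receptor were not measured. Il1r2 relative to Il1r1 was 0.0741 to 0.564 against 0.865 to 0.879, and 0.176 to 0.263 against 0.729 to 1.77, 5.08-fold higher (exact permutation p = 0.013, adjusted p = 0.040). For both ratios the genotypes were apart with either driver.

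Il1rn relative to Il1b, per kilobase, was 1.67 to 7.05 against 4.14 to 11.3 with Pdx1-Cre, where the genotypes overlapped, and 3.01 to 3.12 against 5.66 to 9.51 with P48-Cre, where they did not. The mean difference was 2.07-fold (exact permutation p = 0.033, adjusted p = 0.050). Antagonist counts per kilobase outnumbered those of the ligand in all 11 treated libraries. Il1b was also set against myeloid genes of the same library. Relative to Lyz2, a lysozyme of macrophages and neutrophils, it was 2.17-fold higher in Ehmt2fl/fl mice (exact permutation p = 0.027, adjusted p = 0.050), and relative to Adgre1, the macrophage antigen F4/80, 2.18-fold higher (exact permutation p = 0.047, adjusted p = 0.056). Relative to S100a9, a calcium-binding protein abundant in neutrophils, it was 0.456-fold (exact permutation p = 0.27, adjusted p = 0.27). For all 3 of these ratios the genotypes overlapped with Pdx1-Cre and did not with P48-Cre, where Il1b relative to S100a9 was 0.152 and 0.319 in Ehmt2+/+ and 0.0614 to 0.0956 in Ehmt2fl/fl mice. One Pdx1-Cre Ehmt2+/+ library had 5 S100a9 counts and a ratio of 2.24, against 0.0466 to 0.144 in the other 3 and 0.092 and 0.205 in the Ehmt2fl/fl libraries. Lyz2 and Adgre1 do not stand for all macrophage and monocyte markers, and Il1b was not set against the others. Mean Ccr2 went from 30.05 to 129 CPM between genotypes with Pdx1-Cre and from 23.6 to 166 CPM with P48-Cre. Fcgr1 went from 15.8 to 65.8 and from 8.89 to 51.4 CPM, and Cx3cr1 from 10.8 to 10.9 and from 9.68 to 8.37 CPM.

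**Figure D5:**
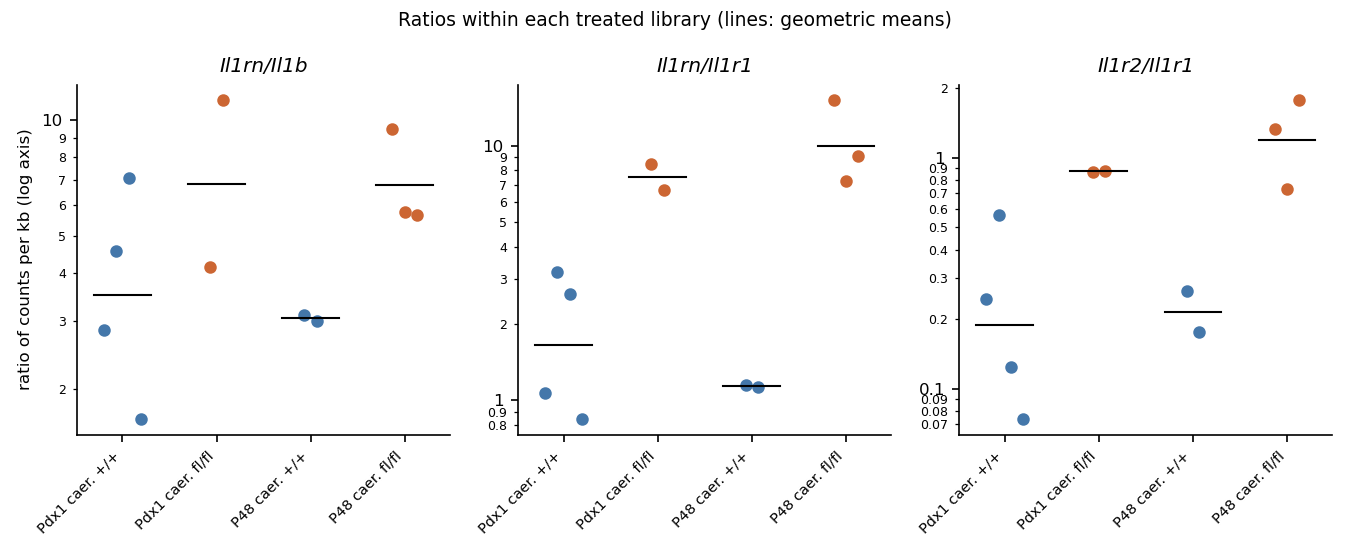
Ratios of counts per kilobase within each of the 11 treated libraries, on log axes (points, libraries, lines, geometric means, blue, Ehmt2+/+, orange, Ehmt2fl/fl). Il1rn/Il1r1 and Il1r2/Il1r1 are higher in all Ehmt2fl/fl libraries, and Il1rn/Il1b overlaps between genotypes with Pdx1-Cre.

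The rest of the pathway was read over both drivers in treated mice. Over all genes tested there, 5.32% were higher and the median log2 difference was -0.01, to be set beside the counts and medians below. Of the other ligands and binding proteins 2 of 4 were higher, Il1f9 (3.46 ± 0.59, edgeR adjusted p = 0.0026), the epithelial cytokine also called interleukin-36γ, and the alarmin Il33 (1.26 ± 0.36, edgeR adjusted p = 0.039). Of the receptor family 1 of 4 was higher, Il18rap (1.26 ± 0.34, edgeR adjusted p = 0.029), the accessory chain for interleukin-18, while the inhibitory receptor Sigirr stood at -0.54 ± 0.15, under the fold threshold. Of 16 signalling genes 0 passed by edgeR and by DESeq2, with 3 at an unadjusted p under 0.05 and a median of 0.06, and the lowest adjusted p was that of Irak3 (0.82 ± 0.16).

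Of the inflammasome and processing genes 4 of 14 were higher, with a median of 0.51, led by Mefv (1.90 ± 0.29), the sensor Nlrp3 (1.64 ± 0.28) and Prtn3, a neutrophil protease (2.19 ± 0.45). Of the genes induced through NF-kB 6 of 14 were higher, with a median of 1.11, led by the neutrophil chemoattractant Cxcl2 (3.33 ± 0.30), Lcn2 (2.39 ± 0.31) and Ptgs2, the inducible cyclooxygenase (2.58 ± 0.42).

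In untreated pancreas the genotypes were compared at both ages, and Il1rn was the member that passed at either. At PN day 10 it stood at 0.476, 0.626 and 0.336 CPM in Ehmt2+/+ and at 7.20, 8.09 and 5.29 CPM in Ehmt2fl/fl mice, a log2 difference of 3.77 ± 0.38 (edgeR adjusted p = 0.0034) with the groups far apart. It was 1 of 6 members tested, against 0.575% of all genes higher. In untreated YA, with the levels given above, it differed by 3.17 ± 0.61 (edgeR adjusted p = 0.081), 1 of 5 members against 0.305% of all genes. This call rested on 5 and 75 counts in all and failed without any 1 library except Ehmt2fl/fl replicate 1. Whether the genotype difference changed with age was tested for 5 members, of which 0 passed by edgeR and by DESeq2 and 1, Casp1, had an unadjusted p under 0.05, against 0.0336% of all genes past the thresholds by edgeR.

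The other members tested gave values near 0 or with wide errors before treatment. Il1b and Il1r2 could not be compared between genotypes at either age, nor Il1rl1 in YA. Il1r2 stood at 0.923 to 1.42 CPM in untreated YA Ehmt2fl/fl mice, on 27 counts in all, with no listed Ehmt2+/+ value. In treated Pdx1-Cre Ehmt2+/+ mice it stood at 0.215 to 1.30 CPM. At PN day 10 Il1r1 differed by 0.01 ± 0.28, Myd88 by 0.21 ± 0.17, Il1rap by -0.44 ± 0.22, Casp1 by 0.64 ± 0.46 and Il1rl1 by 0.68 ± 0.43 on the log2 scale. In YA Casp1 differed by -1.75 ± 0.71 (edgeR adjusted p = 0.46), on 20 and 9 counts in all, and Il1r1 by -0.51 ± 0.36. Lcn2 was the gene of the NF-kB-induced list that passed at both ages (1.71 ± 0.31 and 3.08 ± 0.50). It was 1 of 8 tested at PN day 10 and 1 of 7 in YA, against 0.575% and 0.305% of all genes higher. The list's median was 0.46 at PN day 10, with 8 of 8 positive, and -0.78 in YA, with 1 of 7 positive. Peli1, a ubiquitin ligase of the receptor complex, was lower in YA (-1.40 ± 0.22), 1 of 16 signalling genes against 3 of all 13104 genes. The summed macrophage and monocyte markers overlapped between genotypes at both ages (185-266 against 216-259 CPM and 98.8-198 against 109-134 CPM). The summed neutrophil markers, 3 of 12 listed at PN day 10, did not overlap there (2.69-3.52 CPM in Ehmt2+/+ against 4.58-6.69 CPM in Ehmt2fl/fl libraries), all 3 were positive with a median log2 difference of 0.88, and their part in the Il1rn difference was not tested. Of the neutrophil markers 0 of 3 tested passed at either age (edgeR and DESeq2, and 0 at an unadjusted p under 0.05). In YA the genotypes were also apart for the summed duct and metaplasia markers (656-842 against 947-1043 CPM). The same held for the fibroblast and stellate cell markers (717-750 against 1125-1429 CPM). Of these 0 of 8 and 0 of 9 passed by edgeR and 2 of 8 and 0 of 9 by DESeq2. Their part in the Il1rn difference was not tested.

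Between PN day 10 and YA in Ehmt2+/+ mice, Il1rap fell from 8.59-9.16 to 4.01-4.68 CPM, a log2 difference of -1.04 ± 0.28 (edgeR adjusted p = 0.024), 1 of 5 members lower against 10.2% of all genes. Without YA Ehmt2+/+ replicate 2 it was -0.90 and no longer passed (edgeR adjusted p = 0.14).

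The genes whose levels were most like those of a member over the 22 libraries, by Pearson's r of log2(CPM + 0.5), are given as a description, since the libraries share treatment and genotype groups. For Il1rn the closest were Lcn2 (r = 0.952) and Rdh10 (0.949), for Myd88 Ctsz (0.985), Fxyd5 (0.982) and Itgb6 (0.982), and for Casp1 Psmb8 (0.981), Cd53 (0.972) and H2-DMb1 (0.972). Il1r1 and Il1rap had looser partners, Emb (0.884) and Ccnd1 (0.895). Among the members Il1rn was closest to Myd88 (0.881) and had an r near 0 with Il1rap (-0.0058) over the 22 libraries. That r mixes ages and treatments. Under caerulein both genes were higher in every Ehmt2fl/fl than in every Ehmt2+/+ library. At PN day 10 Il1rap stood at 5.32 to 9.16 CPM and Il1rn at 0.336 to 8.09 CPM.

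The size of the differences depended on the scaling. With library totals alone the median log2 difference over all genes was 1.55 and 2.38 for caerulein in Ehmt2+/+ and Ehmt2fl/fl mice, 0.81 for their difference, -1.72 for age, and 0.84, 0.82 and 0.81 between genotypes with Pdx1-Cre, with P48-Cre and over both. The share of genes past the thresholds that were higher then moved from 52 to 98.5% and from 55.8 to 98.6% for caerulein, from 30.2 to 97.6% for the response by genotype, from 41.5 to 0.569% for age and from 93 to 77.8% for genotype in YA. For genotype under caerulein it moved from 59.6 to 98%, from 67.3 to 98.3% and from 65.9 to 98.3%. Il1rap in Ehmt2+/+ mice changed from -0.45 to 1.01 with caerulein, and the members' differences are therefore relative to the bulk of genes.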

How the data were processed

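Poly(A) RNA from the pancreas of 22 mice was made into TruSeq libraries, sequenced, mapped to GENCODE vM23 on GRCm38.p6 and counted with MapRseq3 by the authors. The submitters' processing notes name edgeR 3.28.1. Raw counts per gene, as deposited by the authors in 6 comparison sheets of 3 workbooks, were joined by gene ID. The sheets also hold 33 columns of RPKM and the authors' own fold changes and p-values, which were not used. Gene length in bases came from the same sheets.

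Groups were taken from the labels, and 11 comparisons were fitted with edgeR 4.0.16 (quasi-likelihood F-test, TMM, filterByExpr with minimum counts of 10 and 15) in R 4.3.3, with p-values adjusted over all genes tested. A gene passed when its adjusted p was under 0.1 and its log2 difference 1 or more in size, the thresholds of the study. Genes listed for the compared groups alone were fitted in those groups and adjusted together with the rest. The SE came from the F statistic. The fits were tested on simulated data. Alternatives were RLE and library totals, TMM without 81 digestive enzyme and mitochondrial genes, no filter, each comparison fitted on its own groups, DESeq2 1.42.0, an adjusted p under 0.05, sex as a covariate and each library left out. CPM used TMM over all libraries. Counting intervals cover counting error only.

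Nothing says that replicates came from separate litters or cages, and p-values measure the spread between the mice sequenced. Members and gene lists were chosen with earlier results of these data known. In each of 5 pathway lists up to 3 genes with the lowest adjusted p could be named. Of 11 marker lists for other cell types, not all are given in every comparison, and a list left out may also differ between genotypes. Promoter windows came from RefSeq. A gene that the rule for genes most like a member would name is not reported here.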

Additional observations from a re-analysis of the deposited data

How the results depend on the processing

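No paired analysis was possible because the labels give animal numbers and no replicate number shared between groups. Of 805 alternative values for 56 member results, 735 kept direction and side of the thresholds, 34 no longer passed, 19 passed only then and 17 changed sign, all of the last from values that had not passed, 1 of which (Il1rap with caerulein in Ehmt2+/+ mice, library totals) passed in the other direction. The count of members past the thresholds changed by over 1.5 times as follows, and the cause was not tested. For genotype in YA it went from 1 to 0 with library totals, with the compared groups alone and at an adjusted p under 0.05, and to 0 to 1 with 1 library left out. For age in Ehmt2+/+ it was 4 with library totals, in place of 1, and 1 to 2 with 1 library left out. For the caerulein response by genotype it was 4 with library totals and 1 with DESeq2, in place of 0, and 0 to 1 with 1 library left out. For genotype under caerulein it was 2 with sex as a covariate, in place of 6, for Pdx1-Cre, and 7 with library totals, in place of 3, for P48-Cre. Leaving out 1 library gave 2 to 6 and 0 to 3 for these, and 2 to 4 for caerulein in Ehmt2+/+ mice. Smaller changes were from 4 to 6 with library totals and to 3 in 4 other settings for caerulein in Ehmt2+/+ mice, from 3 to 2 in 2 settings for P48-Cre, and, with library totals, from 7 to 8 for caerulein in Ehmt2fl/fl mice, from 6 to 8 for Pdx1-Cre and from 5 to 7 over both drivers.

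With 1 library left out, values that changed sign ranged from -0.067 to 0.11 for Il1r1 at PN day 10, from -0.0033 to 0.39 for Il1rap and from -0.96 to 0.20 for Il1r1 by genotype in YA, from -0.19 to 0.96 for Il1r1 with caerulein in Ehmt2+/+ mice, from -1.11 to 0.48 for Il1rn in the caerulein response by genotype, and from -0.032 to 0.47 and from -0.32 to 0.58 for Casp1 by genotype under caerulein with Pdx1-Cre and P48-Cre. The Il1rn response by genotype was -0.0056 with RLE and -0.012 with DESeq2, and Il1rap with caerulein in Ehmt2+/+ mice was 1.01 with library totals.

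Over all genes, DESeq2 called 220 genes by genotype at PN day 10 and edgeR 91, 169 and 43 in YA, 52 and 4 for age by genotype, 558 and 169 for the caerulein response by genotype, and 2 and 0 for driver by genotype. Low counts limit Il1b, Il1r2, Il1rl1 and Casp1 in untreated YA libraries. Where a group was reduced to 1 library, that library was assumed to vary like the other groups.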
